A study of Saccharomyces cerevisiae with 6 samples.

Results

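The genes described here encode the proteins of the large (60S) subunit of the cytosolic ribosome of budding yeast, Saccharomyces cerevisiae. Members were the rows of the deposited expression table whose standard gene name is RPL followed by a number and an optional A or B, together with RPP0, RPP1A, RPP1B, RPP2A and RPP2B. This gave 81 genes out of 7126 features, which encode 46 proteins when the products of an A and a B copy are counted together. Of these proteins 35 are encoded by a pair of paralogous genes (A and B copies) and 11 by a single gene. RPP1, whose product is a subunit of RNase P, was not a member.

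RNA was sequenced from 3 libraries of a strain labelled mms21RINGD and 3 libraries of wild type (WT). The allele belongs to MMS21, which encodes a SUMO ligase of the Smc5/6 complex. The labels give W303 as the strain of the WT libraries and only the allele name as the strain of the mutant libraries, and they do not say how many clones or cultures were used, so p-values measure the spread between libraries, which may be technical. In both groups cells were grown exponentially in YPD medium with CSM, and total RNA was depleted of ribosomal RNA.

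Ribosomal proteins bind ribosomal RNA in the nucleolus and nucleus, and the last of them join the subunit in the cytoplasm. In growing yeast their genes are among the most strongly transcribed of all. Most of them are activated through the DNA-binding protein Rap1 with the cofactors Fhl1 and Ifh1, and they are known to be switched as a group by nutrient and stress signals. Most large subunit proteins are kept as duplicated genes, a remnant of an ancient genome duplication, and in most pairs both copies make the same or nearly the same protein. The copies of P1 and of P2 are less alike, with coding sequences 68.9% and 73.6% identical.

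The libraries held 19.3 to 24.0 M reads in mms21RINGD and 20.9 to 24.6 M reads in WT. All values are RPKM (reads per kilobase of gene, scaled to the total of the library), so they are shares of a library and do not give RNA per cell. Fewer transcripts of a gene per cell and more RNA of other genes cannot be told apart. MMS21 itself measured 14.3 ± 1.99 RPKM in mms21RINGD and 2.82 ± 0.562 RPKM in WT (SD, n = 3 each). A single value for the whole gene says nothing of the altered part, and the label is thus not checked by it. MFA1, MFA2, STE2 and STE6, which mark a-type haploid cells, averaged 84.2 to 1324 RPKM in mms21RINGD and 96.6 to 1448 RPKM in WT. The a-type gene BAR1 was listed at 0 in every WT library and at 0, 0 and 0.028 RPKM in mms21RINGD. The alpha-type markers STE3, MF(ALPHA)1, MF(ALPHA)2 and SAG1 averaged 1.59 to 15.8 RPKM in mms21RINGD and 0.450 to 7.85 RPKM in WT. WT replicate 1 lay nearer to the mutant than the other WT libraries over the members, with a median deviation from each gene's mean of 0.22 on the log2 scale, against 0.28 and 0.29 in the other WT libraries and -0.28 to -0.25 in mms21RINGD.

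Transcripts of the large subunit were lower in mms21RINGD in nearly every gene. The 81 genes together took 6.51%, 6.34% and 6.43% of the reads in the mms21RINGD libraries, against 8.87%, 9.23% and 9.32% in the WT libraries. The groups did not overlap, and the mutant share was 0.703 times the WT share (exact two-sided permutation test, p = 0.1, the smallest p that 3 libraries against 3 allow). In the fit over the 6731 features that averaged 1 RPKM or more, 76 members were called lower, 0 were called higher and 5 were not called (limma, adjusted p under 0.05). Of all features tested, 10.9% were called lower and 42.7% higher. The median log2 fold change of the members, mutant minus WT on the log2(RPKM + 1) scale, was -0.52, or -0.76 relative to the 0.24 of all features tested. All 3 mutant values lay below all 3 WT values in 79 members, against 14.3% of all features tested, and the exceptions were RPL37A and RPL15B. No member had all mutant values above all WT values, against 50.1% of all features tested.

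The scaling set the size of this difference. With median-of-ratios scaling the median of all features moved to -0.0011, and 79 members were called lower with a median of -0.78. With quantile normalization it moved to -0.10, and 71 members were called lower and 4 higher with a median of -0.32, or -0.22 relative to all features. The split of calls over all features, 2875 higher and 732 lower as deposited, was 1710 and 1822 with median-of-ratios scaling and 1369 and 2330 with quantile normalization.

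**Figure D1:**
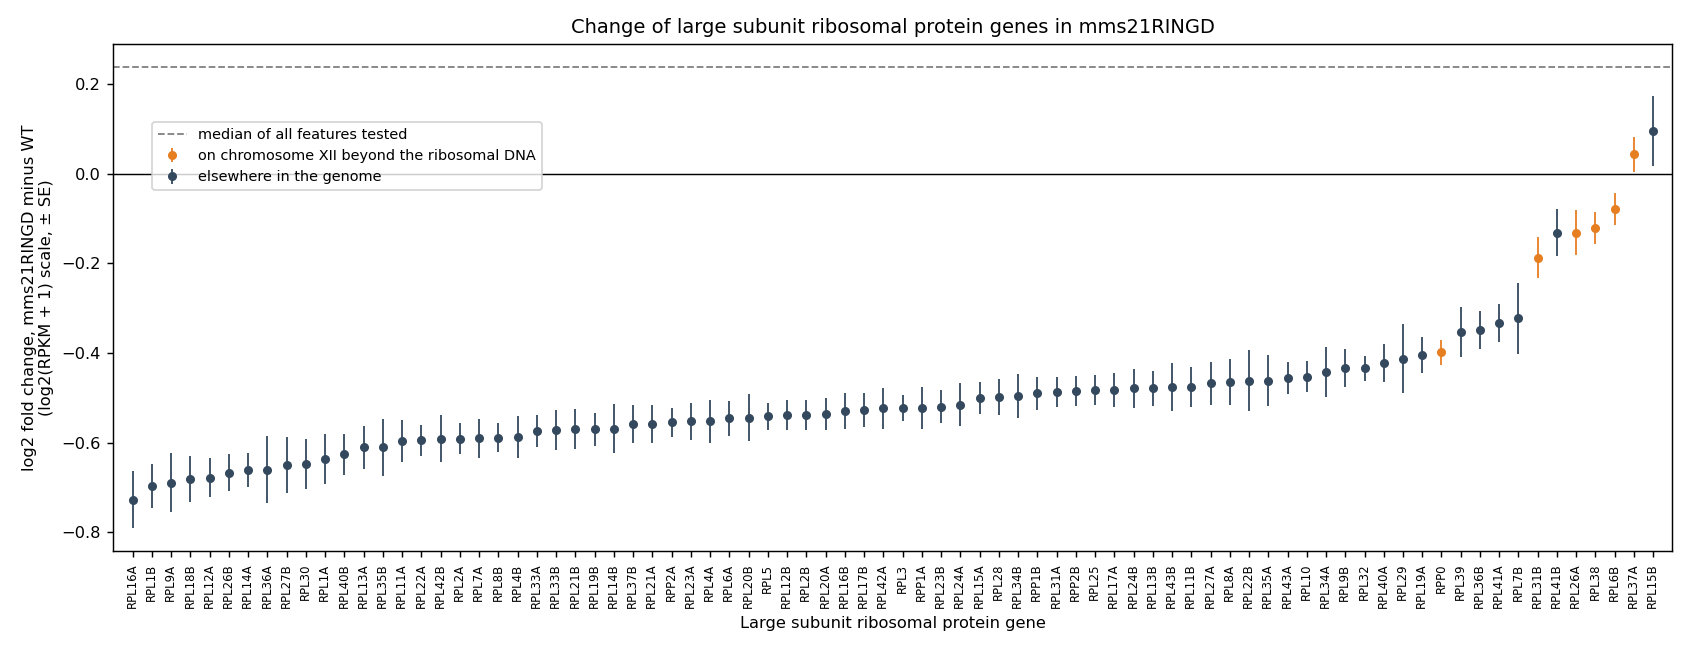
Log2 fold change (mms21RINGD minus WT, log2(RPKM + 1) scale) of the large subunit genes, all but 1 of 81, ordered by size, with the standard error from limma as bars and genes on chromosome XII beyond the ribosomal DNA in orange. The mutant mean was 0.60 to 0.80 times that of WT in 74 of all 81 genes, well below the dashed median of all features at 0.24. RPL37A and RPL15B lie above 0 as deposited, and both are below 0 with median-of-ratios scaling.

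The members changed by similar amounts. Their log2 fold changes had an SD of 0.16, and the quartiles were -0.59 and -0.46. As a measure of how common such changes were at this level of expression, 185 features other than ribosomal proteins had WT levels in the range of the members (10th to 90th percentile, 472 to 3957 RPKM), and of these 87 were lower and 45 higher, with a median of -0.17. The 56 small subunit genes had 53 lower and 1 higher with a median of -0.52.

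RPL16A, which encodes uL13, a protein also found in bacterial ribosomes, had the most negative value. It measured 712, 709 and 699 RPKM in mms21RINGD, against 1068, 1249 and 1202 RPKM in WT. The mutant mean was 0.602 times that of WT (log2 fold change -0.73 ± 0.06 SE, limma adjusted p = 0.000276). RPL1B followed, a gene of uL1, the protein of the mobile L1 stalk beside the exit site for tRNA. It measured 787, 748 and 761 RPKM in mms21RINGD, against 1176, 1275 and 1275 RPKM in WT (log2 fold change -0.70 ± 0.05, limma adjusted p = 0.000118). In both genes every mutant library lay far below every WT library.

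RPL9A, of uL6, measured 1656, 1554 and 1644 RPKM in mms21RINGD, against 2366, 2694 and 2783 RPKM in WT. It fell by 0.69 on the log2 scale (limma adjusted p = 0.000422). RPL18B, of eL18, measured 125, 121 and 126 RPKM in mms21RINGD, against 203, 202 and 193 RPKM in WT, and fell by 0.68 (limma adjusted p = 0.000157). For both genes the groups lay well apart.

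The stalk of the large subunit, which recruits the translation factors that hydrolyse GTP, is built of P0 with pairs of the acidic proteins P1 and P2 and stands beside uL11. All 7 of its genes fell, with log2 fold changes from -0.68 to -0.40. RPL12A, of uL11, measured 1568, 1508 and 1534 RPKM in mms21RINGD, against 2329, 2522 and 2528 RPKM in WT (limma adjusted p = 9.15e-05). RPL12B measured 1579, 1539 and 1552 RPKM in mms21RINGD, against 2207, 2315 and 2265 RPKM in WT (limma adjusted p = 8.49e-05). The A copy was the higher of the 2 in every WT library and the lower in every mutant library.

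Among the acidic proteins, RPP2A measured 2929.7, 2914 and 2806 RPKM in mms21RINGD, against 4118, 4285 and 4299.7 RPKM in WT. RPP2B measured 2990.1, 2865 and 2864 RPKM in mms21RINGD, against 3954, 4097 and 4153 RPKM in WT. RPP1A measured 2887, 2813 and 2785 RPKM in mms21RINGD, against 3798, 4243 and 4156 RPKM in WT. All 3 genes fell by about the same amount, with log2 fold changes of -0.55, -0.48 and -0.52 (limma adjusted p = 7.03e-05, 0.000119 and 0.000316). RPP1B measured 1429, 1421 and 1381 RPKM in mms21RINGD, against 1918, 1989 and 2036 RPKM in WT (log2 fold change -0.49 ± 0.04, limma adjusted p = 0.000169). RPP0, the base of the stalk, measured 4694, 4573 and 4535 RPKM in mms21RINGD, against 5948, 6176 and 6075 RPKM in WT. It was the most abundant member and fell less than the others of the stalk (-0.40 ± 0.03, limma adjusted p = 0.000118).

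The other functional groups moved with the whole. All 3 genes of the 5S ribonucleoprotein, RPL5, RPL11A and RPL11B, fell, with a median log2 fold change of -0.54. The 13 genes of proteins that join late in the cytoplasm all fell, with a median of -0.49. They include RPL10, of uL16, which completes the peptidyl transferase region and is needed for release of the export adaptor. RPL10 measured 3795, 3601 and 3796 RPKM in mms21RINGD, against 4972, 5104 and 5248 RPKM in WT (log2 fold change -0.45 ± 0.03, limma adjusted p = 0.000174). Of the 14 genes of proteins that line or surround the peptide exit tunnel 13 fell, with a median of -0.49. RPL40A and RPL40B, which are made as fusions to ubiquitin, fell with log2 fold changes of -0.42 and -0.63. Of the 30 genes of proteins shared with bacteria (the uL class) 29 fell (median -0.54), and of the 47 genes of the eL class, which bacteria lack, 43 fell (median -0.50).

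Genes of either structure gave like values. Of 53 genes with an intron 50 fell (median -0.54), and of 28 genes without an intron 26 fell (median -0.51). Of 70 duplicated genes 65 fell (median -0.54), and all 11 single-copy genes fell (median -0.45). The deposited values are per kilobase of gene span, introns included. RPL7A and RPL7B hold the small nucleolar RNAs snR39 and snR59 in their introns, and reads of host and guest RNA cannot be told apart in those spans. snR39 averaged 1269 ± 44.3 RPKM in mms21RINGD and 1785 ± 86.1 RPKM in WT, and snR59 averaged 195 ± 16.8 RPKM in mms21RINGD and 235 ± 7.54 RPKM in WT (SD, n = 3 each).

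A ribosome takes the large subunit proteins in equal number, apart from P1 and P2. To compare levels per protein, RPKM was rescaled to coding length and the 2 copies of a pair were added. Single genes spanned a 236-fold range in WT. RPP0 and RPL10 were the highest per coding length in WT and measured 4600.3 ± 82.96 and 3731 ± 112 RPKM in mms21RINGD and 6066 ± 114 and 5108 ± 138 RPKM in WT (SD, n = 3 each). RPL15B and RPL7B were the lowest, at 27.5 ± 1.64 and 132 ± 9.01 RPKM in mms21RINGD and 25.7 ± 1.82 and 166 ± 11.9 RPKM in WT (SD, n = 3 each). RPL7B measured 59.6, 67.5 and 60.6 RPKM per span in mms21RINGD, against 85.0, 76.1 and 74.5 RPKM in WT, and fell (log2 fold change -0.32 ± 0.08, limma adjusted p = 0.0155), a call lost without mms21RINGD replicate 1 (-0.29) or replicate 3 (-0.30). Summed per protein, and with P1 and P2 set aside, the range in WT was 6.07-fold over 44 proteins, and 39 proteins lay within 2-fold of the median. The median WT level of a single-copy gene was 4702 RPKM per coding length, that of a duplicated gene 1929 RPKM and that of the sum of a pair 4196 RPKM.

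All 46 protein sums were lower in every mutant library than in every WT library. The mutant sum was 0.628 (RPL1) to 0.919 (RPL38) times the WT sum. The median sum was 3206, 3066 and 3115 RPKM in mms21RINGD, against 4436, 4551 and 4666 RPKM in WT. The coefficient of variation between the 44 proteins was 37.1%, 36.9% and 37.1% in mms21RINGD, against 33.4%, 32.9% and 33.7% in WT (exact two-sided permutation test, p = 0.1). The groups did not overlap, and the sums were thus slightly less even in the mutant.

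**Figure D2:**
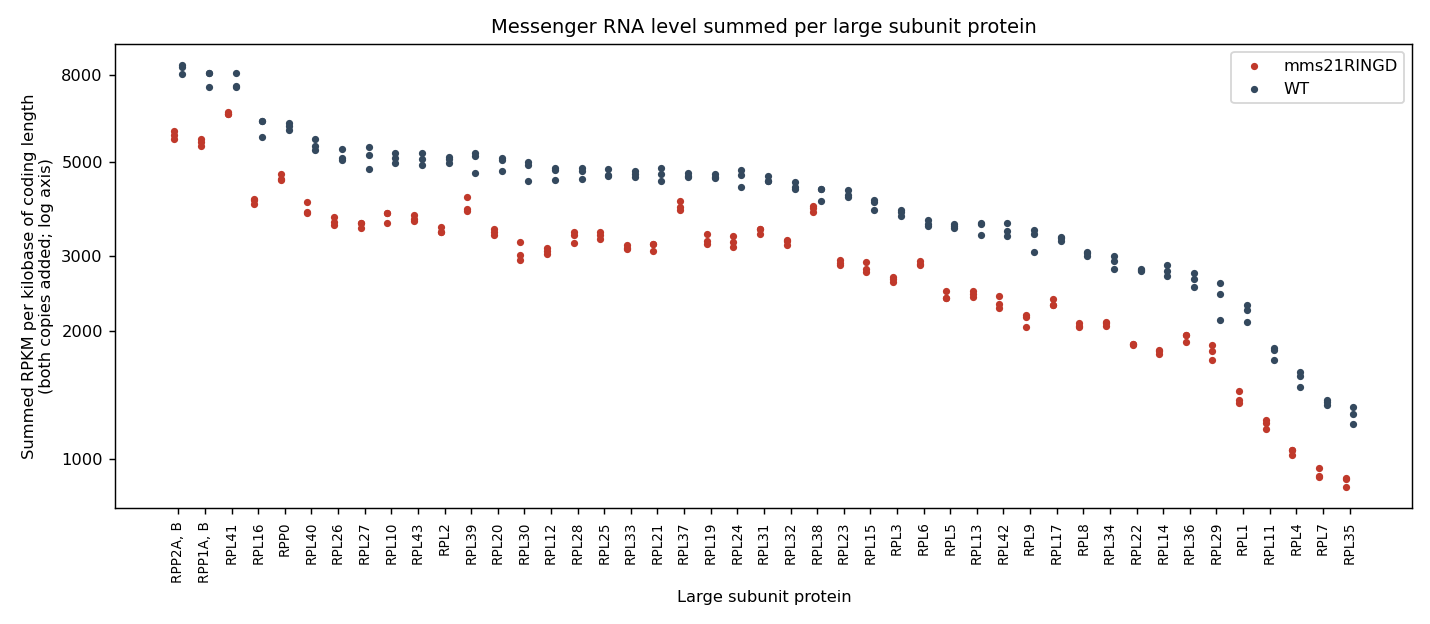
RPKM per kilobase of coding length, summed over the genes of the large subunit proteins, all but 1 of 46, with each library as a point (log axis), mms21RINGD to the left of WT. The mutant points lie below the WT points for every protein shown, closest for RPL38, where the mutant sum was 0.919 times that of WT.

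The lowest sums belonged to proteins whose copies share part of their sequence exactly, though other such proteins had higher sums. The share of a gene's stretches of 50 bases that occur once in the genome was 19.0% for RPL1A and RPL1B, 27.3% for RPL4A and RPL4B and 39.1% for RPL11A and RPL11B. It was 68.6% and 64.8% for RPL35A and RPL35B, 75.8% and 74.0% for RPL7A and RPL7B, and at least 90% for 57 of the 81 members. RPL35, RPL7, RPL4, RPL11 and RPL1 had the 5 lowest sums, 889 to 1394 RPKM in mms21RINGD and 1272 to 2219 RPKM in WT. The sources used here do not give how reads that match several places were treated, so the levels of these genes, and the split between their copies, are uncertain. RPL41, at 31.0%, had the highest sum apart from P1 and P2. RPL2A and RPL2B, at 76.5% and 81.8%, had a WT sum of 5069 RPKM, 1.11 times the median sum. RPL14A and RPL14B, at 79.8%, had a WT sum 0.607 times the median. The part of shared sequence in the levels was not tested.

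RPL41 shows the extent of the problem. Its copies encode a peptide of the subunit interface that is among the shortest known proteins, and their coding sequences differ at a single base of 78, which is in capitals below. Both are on chromosome IV, minus strand, of the R64 assembly, RPL41A at chrIV:130407-130484 and RPL41B at chrIV:221724-221801, and neither has an intron.
RPL41A: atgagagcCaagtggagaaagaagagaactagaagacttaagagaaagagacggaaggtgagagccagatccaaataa
RPL41B: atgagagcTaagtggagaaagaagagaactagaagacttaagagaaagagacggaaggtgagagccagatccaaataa
RPL41A measured 3490.5, 3507 and 3566 RPKM in mms21RINGD, against 4510.2, 4181 and 4637 RPKM in WT, and fell (log2 fold change -0.33 ± 0.04, limma adjusted p = 0.00128), a call lost with quantile normalization (-0.08). RPL41B measured 2982, 2971 and 2996 RPKM in mms21RINGD, against 3014, 3362 and 3447 RPKM in WT, and was not called (-0.13 ± 0.05, limma adjusted p = 0.0722). WT replicate 1 lay just above the mutant libraries for this gene and far below the other WT libraries. Without it RPL41B was called lower (-0.19), as it was with median-of-ratios scaling (-0.39), while with quantile normalization it was called higher (0.15).

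In most pairs both copies fell by like amounts. The difference in log2 fold change between A and B copies was under 0.1 in 16 of 35 pairs and over 0.2 in 10 pairs, with a median absolute value of 0.12. Coding sequences of a pair were 68.9% to 99.4% identical. Shares of the A copy in the pair total, here and below, used RPKM per gene span as deposited and not per coding length. They did not overlap between groups in 23 pairs, higher in mms21RINGD in 9 of them and lower in 14. Over all 61 pairs of this kind in the table the figure was 67.2%. Among the other 26 pairs in the table whose names share a stem and end in A and B, 24 of them of the small subunit, 69.2% did not overlap, close to the share among the large subunit pairs. In 23 pairs the copy with the higher WT level per coding length had the more negative fold change, and in 12 pairs the copy with the lower level. RPL37, RPL26, RPL6 and RPL31, treated below, are among those 23. The WT values enter both the ranking and the fold change, and this split was not tested.

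The copies of eL37, a zinc-binding protein, differed most. RPL37A measured 1015, 965 and 966 RPKM in mms21RINGD, against 940.0, 968 and 952 RPKM in WT, and the groups overlapped. RPL37B measured 679, 649 and 671 RPKM in mms21RINGD, against 988, 952 and 1007 RPKM in WT, with no overlap. RPL37B fell (log2 fold change -0.56 ± 0.04, limma adjusted p = 0.000161) and RPL37A was not called (0.04 ± 0.04, limma adjusted p = 0.386). RPL37A gave 59.6% ± 0.498 of the pair total in mms21RINGD and 49.3% ± 1.00 in WT (SD, n = 3 each), a shift of 10.3 percentage points (exact two-sided permutation test, p = 0.1). The direction of RPL37A depended on the scaling, with a log2 fold change of -0.21 with median-of-ratios scaling (not called) and 0.29 with quantile normalization (called).

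RPL26A, of uL24, a protein near the tunnel exit, measured 559.6, 549 and 513 RPKM in mms21RINGD, against 599.9, 578 and 599 RPKM in WT, and was not called (log2 fold change -0.13 ± 0.05, limma adjusted p = 0.0611). Median-of-ratios scaling (-0.39) and leaving out WT replicate 1 (-0.12) each made RPL26A pass as lower. RPL26B measured 1114, 1082 and 1088 RPKM in mms21RINGD, against 1681, 1725 and 1813 RPKM in WT (-0.67 ± 0.04, limma adjusted p = 8.28e-05). RPL26A made up 33.0% ± 0.883 of the pair total in mms21RINGD and 25.4% ± 0.790 in WT (SD, n = 3 each).

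For eL6, RPL6A measured 741, 737 and 749 RPKM in mms21RINGD, against 1049, 1105 and 1099 RPKM in WT (log2 fold change -0.55 ± 0.04, limma adjusted p = 0.000135). RPL6B measured 904, 902 and 919 RPKM in mms21RINGD, against 962, 975 and 942 RPKM in WT, and was not called (-0.08 ± 0.04, limma adjusted p = 0.104). The mutant values of RPL6B lay below the WT values by a small margin, so RPL6A was the more abundant copy in WT and RPL6B in the mutant. RPL6B passed as lower without WT replicate 1 (-0.08) and with median-of-ratios scaling (-0.33), and as higher with quantile normalization (0.17).

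RPL31A, of eL31 at the tunnel exit, measured 1074, 1057 and 1075 RPKM in mms21RINGD, against 1496, 1482 and 1518 RPKM in WT. RPL31B measured 538, 509 and 532 RPKM in mms21RINGD, against 584, 597 and 617 RPKM in WT. Both fell, RPL31A by 0.49 and RPL31B by 0.19 on the log2 scale (limma adjusted p = 0.000111 and 0.0147). The call of RPL31B was lost with quantile normalization (-0.07) and on leaving out any of mms21RINGD replicates 2 and 3 and WT replicates 2 and 3, with values from -0.20 to -0.16 in those 4 fits.

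The other pairs of this kind were eL36 and eL15. RPL36A measured 227, 234 and 229 RPKM in mms21RINGD, against 327, 383 and 386 RPKM in WT (log2 fold change -0.66 ± 0.07, limma adjusted p = 0.000814). RPL36B measured 734, 764 and 775 RPKM in mms21RINGD, against 959.6, 945 and 991 RPKM in WT (-0.35 ± 0.04, limma adjusted p = 0.00102), a call lost with quantile normalization (-0.10). The groups did not overlap for either copy.

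RPL15A measured 2778, 2728 and 2885 RPKM in mms21RINGD, against 3829.8, 3998 and 4045 RPKM in WT (-0.50 ± 0.04, limma adjusted p = 0.000136). RPL15B, the weakest member, measured 26.7, 26.5 and 29.4 RPKM in mms21RINGD, against 27.7, 24.2 and 25.2 RPKM in WT, and was not called (0.10 ± 0.08, limma adjusted p = 0.326). Its log2 fold change was -0.15 with median-of-ratios scaling and -0.22, called lower, with quantile normalization. RPL15A was 154 times as abundant as RPL15B in WT, and RPL15A made up 99.03% ± 0.0311 of the pair total in mms21RINGD and 99.35% ± 0.0634 in WT (SD, n = 3 each). RPL15B held 316, 391 and 364 reads in mms21RINGD, against 420, 311 and 336 reads in WT.

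**Figure D3:**
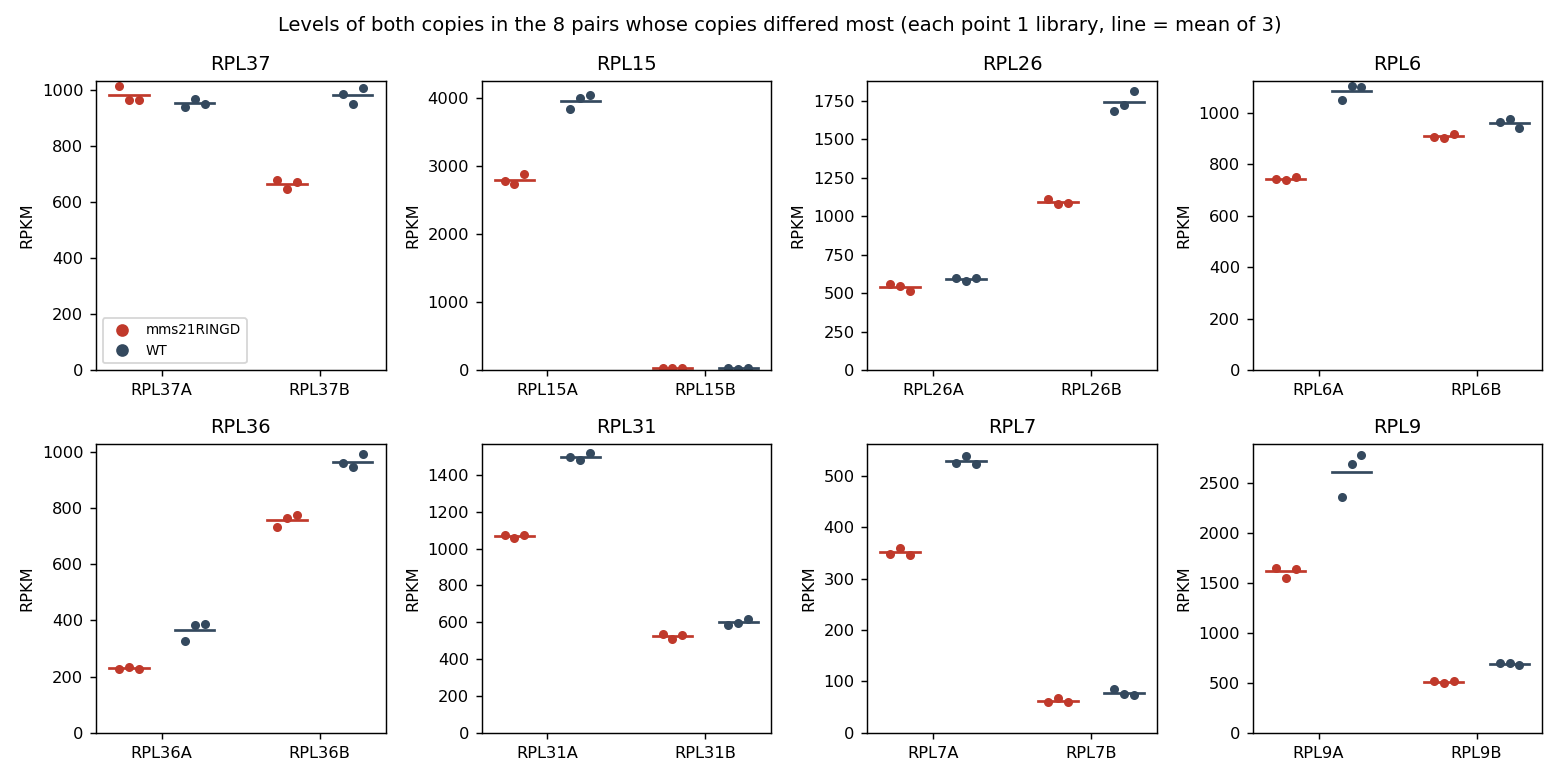
RPKM of both copies in the 8 pairs whose copies differed most in log2 fold change, with each point a library and each line the mean of 3, mms21RINGD to the left of WT. The mutant points of RPL37A, RPL26A, RPL6B and RPL31B lie close to those of WT, while their partner copies lie clearly lower in the mutant. The same holds for RPL15B, which averaged 27.5 RPKM in mms21RINGD and 25.7 RPKM in WT, and its partner RPL15A.

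**Figure D4:**
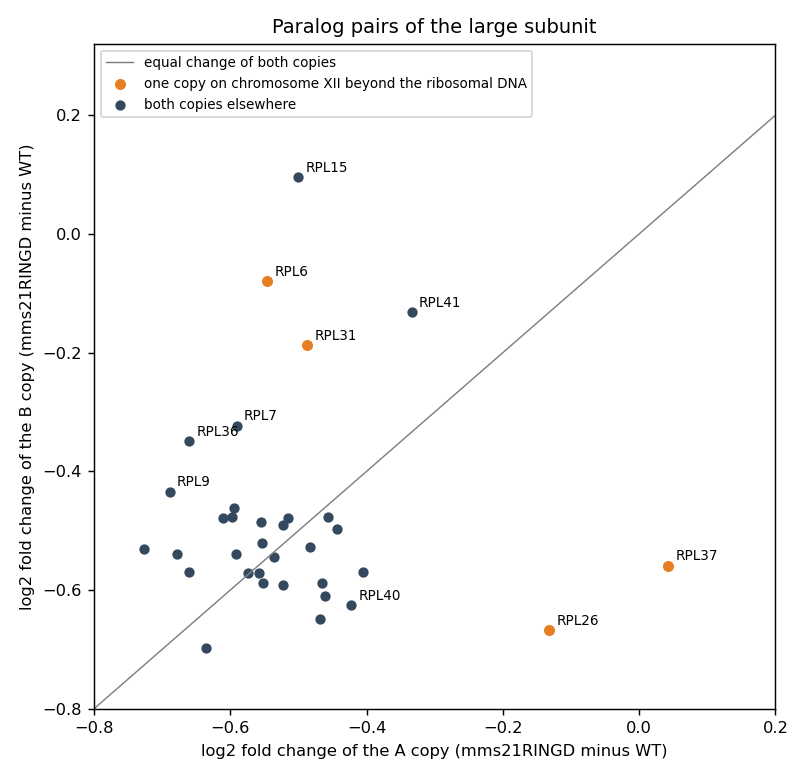
Log2 fold change (mms21RINGD minus WT) of the A copy against that of the B copy for the pairs, all but 1 of 35, with the line of equal change. Pairs with a copy on chromosome XII beyond the ribosomal DNA (orange) lie far from the line, each with that copy nearer to 0 or above it, as do RPL15 and RPL36, which have neither copy there.

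Of the 7 members with the least negative log2 fold changes, 5 lie on the same stretch of chromosome XII, while RPL15B and RPL41B lie on other chromosomes. The ribosomal DNA, the repeats that encode ribosomal RNA, lies on chromosome XII between positions 451786 and 489469 of the R64 assembly, and 6 members lie beyond it, toward the right end. In order they are RPL37A (522663 to 523288), RPL38 (781143 to 781379), RPP0 (805887 to 806825), RPL26A (819312 to 820142), RPL31B (931065 to 931755) and RPL6B (1028854 to 1029768). RPL38 and RPL31B are on the minus strand and the others on the plus strand. This division was chosen after the values were seen. RPL38, a single-copy gene, measured 3905, 3812 and 3946 RPKM in mms21RINGD, against 4057, 4324 and 4315 RPKM in WT (log2 fold change -0.12 ± 0.04, limma adjusted p = 0.0259). That call was lost when any library other than WT replicate 1 was left out (-0.13 to -0.11), with totals without structural RNAs (-0.08) and in limma without a trend (-0.12), and with quantile normalization RPL38 was called higher (0.14).

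Among these 6 genes 3 were called lower, with a median log2 fold change of -0.13. Among the 75 members elsewhere 73 were called lower, with a median of -0.54. The 4 members on chromosome XII before the ribosomal DNA (RPL8B, RPL15A, RPL22A and RPL10) were all called lower, with a median of -0.54. In each library the median deviation of the 6 genes minus that of the 75 others was 0.20, 0.22 and 0.21 in mms21RINGD, against -0.18, -0.21 and -0.21 in WT on the log2 scale. The groups did not overlap, and the difference between them was 0.41 (exact two-sided permutation test, p = 0.1, the smallest possible). The stretch was picked from the values of these same members, so this test cannot serve as support for the division.

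Other genes of the same stretch stood apart in the same direction. Of 271 other features beyond the ribosomal DNA 216 were called higher and 6 lower, with a median log2 fold change of 0.51. Of 5507 other features elsewhere 2415 were higher and 525 lower, with a median of 0.24, and the 204 before the ribosomal DNA on the same chromosome had a median of 0.23. The difference between the stretch and the rest was 0.14, 0.13 and 0.14 in mms21RINGD, against -0.15, -0.14 and -0.13 in WT (exact two-sided permutation test, p = 0.1). In bins of 50 kb the median was 0.15 to 0.33 before the ribosomal DNA and 0.41 to 0.66 beyond it. Small subunit genes showed the same division, with 4 of 7 lower and 1 higher beyond the ribosomal DNA (median -0.12) and 49 of 49 lower elsewhere (median -0.54). Relative to the median of the other features in the same stretch, the 6 large subunit genes lay at -0.90 to -0.46 with a median of -0.63. The members elsewhere had a median of -0.78 relative to the other features elsewhere. DNA was not measured, and the part of the number of DNA copies of this stretch in these values, including those of its large subunit genes, was not tested.

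**Figure D5:**
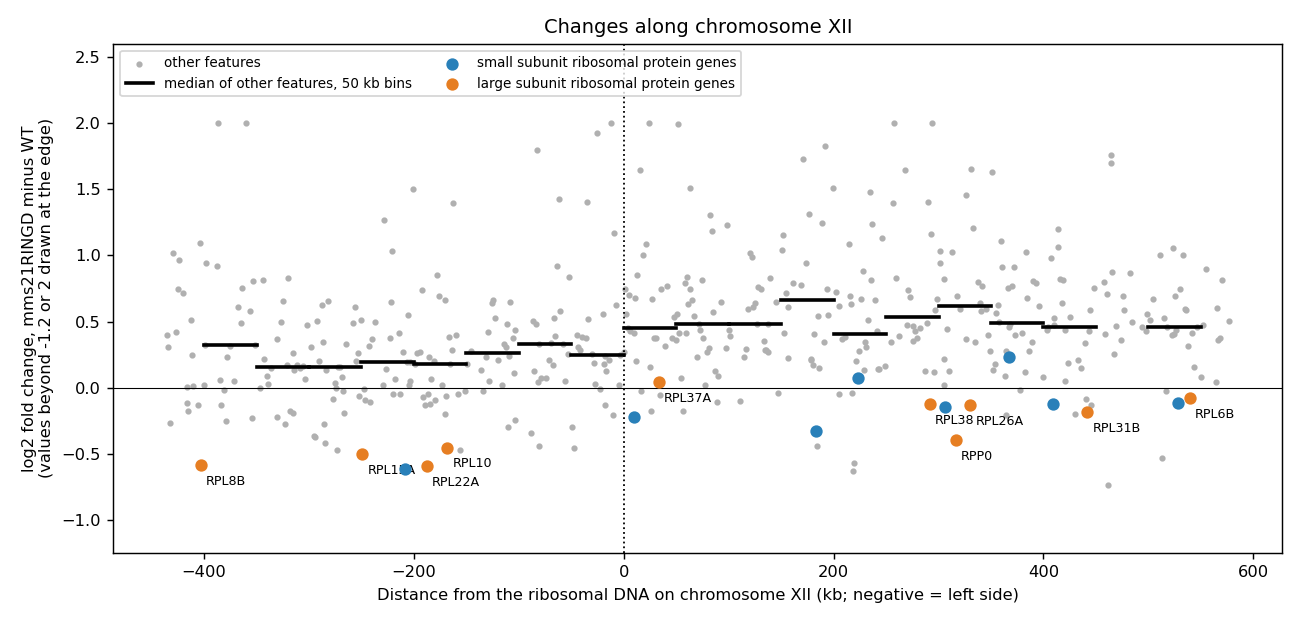
Log2 fold change (mms21RINGD minus WT) of features on chromosome XII by distance from the ribosomal DNA in kb (negative to the left), with large subunit genes labelled and black bars for the median of other features in bins of 50 kb with at least 20 features. Beyond the ribosomal DNA the bars lie at 0.41 to 0.66 and the large subunit genes at -0.40 to 0.04, against -0.59 to -0.45 for those on the other side.

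The copies of a pair were also compared by position. This uses the same member values that led to the division and is not separate support for it. The 4 pairs with a copy beyond the ribosomal DNA, those of RPL37, RPL26, RPL6 and RPL31, differed between copies by 0.30 to 0.60 on the log2 scale. In the 31 other pairs the median difference was 0.09, and the largest values, 0.60 for RPL15 and 0.31 for RPL36, lay within the range of those 4 pairs. RPL37A, RPL26A, RPL31B and RPL6B were 98.8%, 97.1%, 100% and 100% unique in stretches of 50 bases.

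Upstream sequence is shown for the members beyond the ribosomal DNA that held a Rap1-type match, for RPL26B as the partner of RPL26A, and for RPL1B, which had the second most negative fold change. The motif searched was ACCCNNACA on either strand. It was found within 500 bases before the start codon in 44.4% of the members, against 5.48% of 6002 genes, and in 3 of the 6 members beyond the ribosomal DNA. In the window from 250 bases before to 50 bases after the start it was found in 9.88% of members and 2.83% of all genes. Stretches of 120 bases are from the RefSeq R64 assembly, read 5′ to 3′ on the strand of the gene, with the match in capitals.
RPL26A: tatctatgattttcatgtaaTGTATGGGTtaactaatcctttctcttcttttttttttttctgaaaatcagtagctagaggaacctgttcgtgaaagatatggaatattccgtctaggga
RPL26B: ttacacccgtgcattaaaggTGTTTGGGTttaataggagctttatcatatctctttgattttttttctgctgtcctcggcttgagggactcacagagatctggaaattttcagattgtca
RPL38: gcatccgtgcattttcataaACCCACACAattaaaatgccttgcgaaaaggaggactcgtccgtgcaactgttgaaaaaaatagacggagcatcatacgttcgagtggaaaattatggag
RPL6B: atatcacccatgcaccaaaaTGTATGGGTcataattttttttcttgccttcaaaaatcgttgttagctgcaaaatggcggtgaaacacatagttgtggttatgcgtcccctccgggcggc
RPL1B: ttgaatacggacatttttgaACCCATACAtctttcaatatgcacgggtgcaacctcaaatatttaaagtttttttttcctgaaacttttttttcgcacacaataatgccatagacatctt
They lie at chrXII:819022-819141 (plus strand) for RPL26A, chrVII:555508-555627 (plus) for RPL26B, chrXII:781549-781668 (minus) for RPL38, chrXII:1028395-1028514 (plus) for RPL6B and chrVII:254310-254429 (plus) for RPL1B. RPL26A and RPL26B each carried an exact match at a like distance, 270 and 284 bases before the start codon. Their log2 fold changes were -0.13 and -0.67. Near matches were not counted or marked. The printed stretches hold some, acccgtgca in RPL26B, acccatgca in RPL6B and tgcacgggt in RPL1B, so upstream regions with a like exact match can differ in other sites. Members with a match within 500 bases had a median log2 fold change of -0.54 and those without it -0.52. A match is a description of the letters and not evidence of binding.

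Genes of chaperones that serve the large subunit proteins averaged lower in mms21RINGD, though not all were called. Of 5 dedicated chaperones, which bind particular large subunit proteins, 3 were called lower and 0 higher. Over all features tested 10.9% were lower and 42.7% higher. The chaperones had log2 fold changes from -0.57 to -0.23, with a median of -0.42. WT replicate 1 stood apart, with a median deviation from each gene's mean of -0.05 on the log2 scale, against 0.34 in each of the other WT libraries and -0.24 to -0.19 in mms21RINGD. Without it all 5 were called lower, and quantile normalization and median-of-ratios scaling each gave the same count. RRB1, the chaperone of uL3, averaged 116 ± 2.74 RPKM in mms21RINGD and 168 ± 19.9 RPKM in WT. BCP1, which binds uL14, averaged 61.5 ± 1.31 RPKM in mms21RINGD and 92.3 ± 12.8 RPKM in WT, and ACL4, which binds uL4, averaged 50.6 ± 2.08 RPKM in mms21RINGD and 68.4 ± 10.4 RPKM in WT (SD, n = 3 each, limma adjusted p = 0.00483, 0.00565 and 0.0241). SYO1, of the 5S ribonucleoprotein, and SQT1, the chaperone of uL16, were not called (log2 fold changes -0.34 and -0.23). SYO1 measured 59.6, 60.4 and 61.6 RPKM in mms21RINGD, against 62.5, 84.1 and 87.0 RPKM in WT, and SQT1 measured 122, 124 and 122 RPKM in mms21RINGD, against 121.9, 156 and 157 RPKM in WT. The call of ACL4 was lost when any library other than WT replicate 1 was left out (-0.45 to -0.35).

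Of 12 regulators of ribosomal protein genes 1 was lower and 4 were higher, with a median of 0.16. Over all features tested 10.9% were lower and 42.7% higher, with a median of 0.24. HMO1, a high mobility group protein bound at many of these promoters, fell to 106 ± 1.59 RPKM in mms21RINGD, against 154 ± 2.61 RPKM in WT (limma adjusted p = 0.000349). IFH1, the coactivator, averaged 30.9 ± 1.53 RPKM in mms21RINGD and 19.3 ± 1.18 RPKM in WT (log2 fold change 0.65 ± 0.07, limma adjusted p = 0.000733), and the gene (YLR223C) lies on chromosome XII beyond the ribosomal DNA. CRF1, a corepressor that competes with Ifh1 for Fhl1, averaged 15.8 ± 0.448 RPKM in mms21RINGD and 7.09 ± 0.950 RPKM in WT (1.06 ± 0.10, limma adjusted p = 0.000421). SCH9, a kinase downstream of TOR complex 1, and STB3 were called higher, with log2 fold changes of 0.27 and 0.62. The value of SCH9 was close to the median of 0.24 over all features tested. RAP1, FHL1, SFP1, ABF1, TBF1, TOR1 and MRS6 were not called, with log2 fold changes from -0.19 to 0.18. Of these, SFP1 (YLR403W, 0.15) lies on the same stretch of chromosome XII as IFH1. For ABF1 the WT libraries stood apart from each other, at 31.2, 16.9 and 16.5 RPKM, with 23.2, 23.8 and 23.4 RPKM in mms21RINGD. The counts for these regulators moved with the scaling. They were 5 lower and 3 higher with median-of-ratios scaling and 6 lower and 2 higher with quantile normalization. Without WT replicate 1 they were 3 lower and 7 higher.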

How the data were processed

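The authors deposited 1 table of RPKM values with a column per library, 3 mms21RINGD and 3 WT, and columns were matched to samples by title. Per the submitters' processing notes, CASAVA 1.8.2, TopHat2 2.0.8 and edgeR 3.8.6 and the build sacCer3 were used, with no role given. The read counter, annotation, strand setting and treatment of shared reads are not stated in any source used here. Names, positions and sequence came from RefSeq R64, the same assembly as sacCer3, where the systematic name matched 6048 features and the symbol another 114. Whole reads were read back from RPKM, gene span and library step. Between 99.77% and 99.80% of values above 0 were whole within 0.02 of a read, and all 81 members were whole in every library.

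After a filter at a mean of 1 RPKM, log2(RPKM + 1) was modelled in limma 3.58.1 (R 4.3.3) with a variance trend and no covariate, two-sided, with Benjamini-Hochberg adjustment over all features. An adjusted p under 0.05 was a call. A number after ± is the SE beside a log2 fold change and the SD of 3 libraries elsewhere. Values per library were compared with an exact permutation test. On simulated libraries of 5892 features, 98% of genes halved (0.5-fold) and 92% of genes at 0.667-fold were called. The simulation had a fixed dispersion of 0.005 and 50 changed features per fold, and it gave 9 false calls. It had far fewer changed features than the data and no library that stood apart, so these rates are not those of the data. Alternatives were pseudocounts of 0.1 and 5 RPKM, other filters (none, or a mean of 10 RPKM), 3 other scalings, voom on recovered reads, no trend, a block for the replicate number, and each library left out in turn. Full values were given for the members with the most and least negative fold changes, those not called lower, the stalk, the highest and lowest levels and the 6 pairs that differed most. The chaperones, RPL40A, RPL40B and RPL41A were put through the alternatives after the data were seen. Members not in that rule (RPL41A) and ribosomal protein lists were named beside them. One member is counted in all totals but is not reported by itself here or plotted. Members and lists were chosen with earlier results of these data known.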

Additional observations from a re-analysis of the deposited data

How the results depend on the processing

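The pseudocount, the filter, voom, limma without a trend and totals without structural RNAs left 75 or 76 members lower and 0 higher. With totals without structural RNAs the median was -0.48 for the large and for the small subunit, and the share of reads in mms21RINGD was 0.724 times that in WT when those RNAs were left out of the total. Median-of-ratios scaling gave a median of -0.78 for both subunits, 1822 features lower and 1710 higher, an all-feature median of -0.0011 and 0 small subunit genes higher. It turned RPL15B to -0.15 and RPL37A to -0.21. Quantile normalization gave medians of -0.32 and -0.31 for the large and small subunit, with 4 and 3 genes higher, 2330 features lower and 1369 higher, and an all-feature median of -0.10. It turned RPL15B to -0.22, RPL38 to 0.14, RPL41B to 0.15 and RPL6B to 0.17. The difference beyond the ribosomal DNA was then 0.28 (0.285) for other features and 0.37 for members. In these cases the scaling alone was changed.

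Leaving out each library gave 73 to 79 members lower with medians from -0.54 (-0.544) to -0.51 (-0.508), and 433 to 1029 features lower and 1848 to 3865 higher. The highest counts were without WT replicate 1 and the lowest without mms21RINGD replicate 3. The ratio of the coefficients of variation per protein, mms21RINGD over WT, was 1.10 to 1.12, and the difference beyond the ribosomal DNA 0.256 to 0.282 for other features. Same-numbered libraries correlated at -0.325 to -0.0182 in their deviations from the group means, which shows no pairing by number. With 3 libraries per group this cannot exclude a shared batch. A replicate block left 74 members lower. Under that block the calls of RPL31B, RPL38 and the chaperone gene ACL4 were lost (adjusted p = 0.0518, 0.0679 and 0.0508 in limma). Every member held 311 reads or more in each library. The fewest were in RPL15B, where counting error was not small beside the change (log2 fold change 0.10 ± 0.08).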
